A study of Sus scrofa with 4 samples.

Results

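The cytosolic ribosomal protein genes are the genes for the protein parts of the ribosomes that work in the cytoplasm. They were taken from the counts table by symbol, as every gene whose symbol begins with RPL or RPS and a number, with RPLP or with RPSA, leaving out the RPS6K kinases, which phosphorylate ribosomal proteins or other substrates and are not part of the ribosome. This gave 47 of the 4381 listed genes, 29 of the large subunit and 18 of the small subunit. In the RefSeq gene table for the pig assembly Sscrofa11.1, 84 symbols fit the same pattern, and the 37 others, among them RPL4, RPL8, RPS2 and RPS6, were not analysed here. Of the 47 genes, 45 have a curated RefSeq transcript, against 0 of those 37 symbols, so the genes described here are the curated part of the family and not all of it. By RefSeq the 47 genes lie on 14 chromosomes.

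RNA was sequenced from pig oocytes at metaphase II (M II), the stage at which a mature egg waits for fertilization, to compare oocytes matured with and without inhibition of SIRT6, an NAD-dependent deacylase of the sirtuin family. Control oocytes and SIRT6-inhibited oocytes gave 2 libraries each, both groups having been matured in vitro for 42 to 44 h, inside their cumulus cells, in medium with follicular fluid and gonadotropins. The inhibited group received the small molecule SIRT6-IN-1, at 100 µM by the study's methods, and whether the control medium held the solvent DMSO is not given in the sources used here. The ovaries came from an abattoir and the oocytes were pooled, and nothing says whether the 2 libraries of a group came from separate batches of oocytes, so p-values measure only the spread between these libraries, which may be technical.

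A ribosome consists of a small subunit, which binds the mRNA and reads its codons, and a large subunit, which joins the amino acids into a chain. Each subunit is built on ribosomal RNA with many small proteins, nearly all present in a single copy, so growing cells make these proteins in balanced amounts. Most of their mRNAs begin with a terminal oligopyrimidine (TOP) stretch, through which mTOR signaling controls their translation. A growing oocyte stores ribosomes and mRNAs, and transcription is largely silent during the meiotic maturation that follows, so that mRNA levels in an M II oocyte depend largely on what was stored and how much of it has been degraded.

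The listed genes held 4646129 counts in control library 1, 3405960 in control library 2, 3239200 in inhibited library 1 and 4972602 in inhibited library 2. At least 1 count was found for 2411 and 2689 genes in the control libraries and for 2277 and 2320 genes in the inhibited libraries, so fewer genes were detected in both inhibited libraries, although inhibited library 2 was the deepest. Values below are normalized CPM (counts of a gene as a share of the library, after scaling the totals with edgeR's TMM factors). They are not corrected for transcript length, so levels are compared between libraries and not between genes. A count of 0 allows a level of up to 3 counts, which is 0.648 and 0.845 normalized CPM in control libraries 1 and 2 and 0.932 and 0.625 in inhibited libraries 1 and 2, counting error only.

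Oocyte markers were abundant in all 4 libraries. Their summed level was 122174 and 120126 normalized CPM in the control libraries, against 125367 and 128869 in the inhibited libraries, with WEE2, an oocyte kinase that holds meiosis arrested, giving the most reads of the list. Cumulus and granulosa cell markers summed to 347 and 308 normalized CPM in the control libraries and to 188 and 335 in the inhibited libraries. VCAN, a matrix proteoglycan, gave the most reads of these. Of the 26 markers of these cells in the table, 7 were at 0 counts in every library, including the receptors FSHR, LHCGR and AMHR2 and the matrix-binding protein TNFAIP6, and 12 were tested. Their median log2 fold change was -0.51, with 9 of 12 below 0 (75%, against 52.8% of all tested genes). At an unadjusted p under 0.05, 0 were lower (against 5.99% of all tested genes) and 0 were higher (against 3.06%). The median was -0.23 without control library 1 and -1.31 without inhibited library 2. PTGS2, a prostaglandin synthase of expanding cumulus cells, was counted 22 and 12 times in the controls, against 0 in both inhibited libraries, so its control mean was at least 5.22-fold higher than the mean floor of 3 counts per library. It passed the filter on low counts through the control libraries alone, which fixed its direction, and without it 8 of 11 were below 0 with a median of -0.42. Above 0 were 3 tested markers, among them CYP11A1 and NR5A2, with log2 fold changes of 2.62 (SE 2.29) and 1.12 (SE 2.875). CYP11A1 was at 0 and 2.53 normalized CPM in the control libraries, against 4.04 and 11.7 in the inhibited libraries. The part of these cells' RNA in the ribosomal protein values was not tested.

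Most ribosomal protein mRNAs had a lower fitted level in the inhibited oocytes. With edgeR's quasi-likelihood test, however, no gene of the family and no other tested gene passed adjustment. Of the 47 genes, 46 had enough counts to be tested, and in 0 of them did the filter on low counts pass through the control libraries alone. The fitted log2 fold change of inhibited over control was below 0 in 42 of the 46 genes (91.3%), against 52.8% of all 2387 genes tested, and the median was -0.78, against -0.04. The spread of single genes was wide, from -4.46 for RPS26 to 0.32 for RPS20, with the middle of the distribution between -1.30 and -0.24 at its quartiles. The plot of values by library shows these genes one by one. As each library holds pooled RNA, fewer transcripts in every oocyte cannot be told apart from fewer oocytes that carry them.

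**Figure D1:**
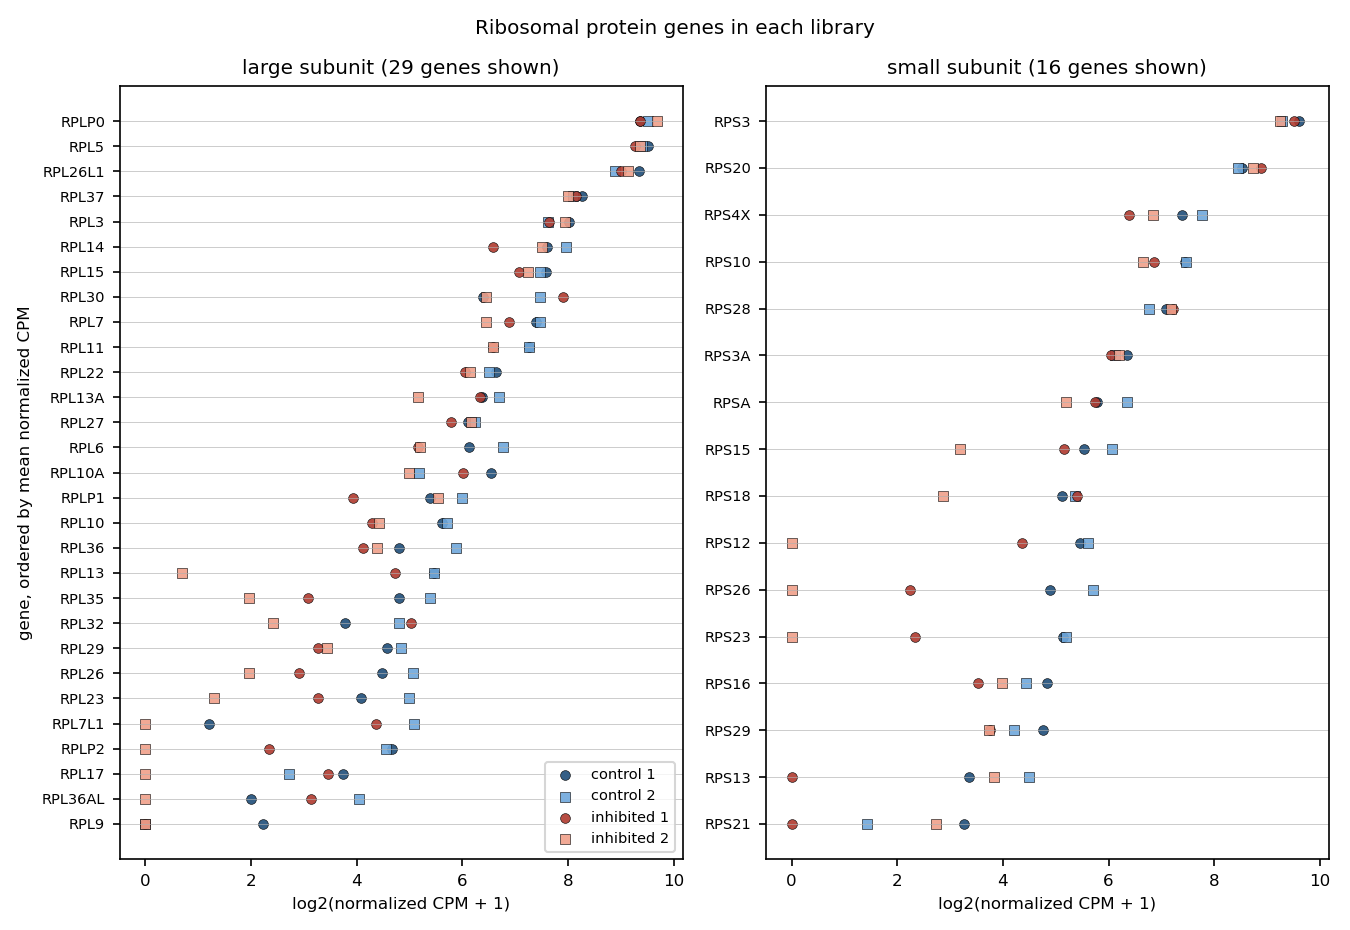
Level of 45 of the 47 ribosomal protein genes in each library, as log2(normalized CPM + 1) on the horizontal axis, with genes ordered by mean level within the large subunit (left) and the small subunit (right). Blue points are the 2 control libraries and red points the 2 inhibited libraries. Red points lie mostly to the left of blue ones, and inhibited library 2 is at 0 for RPS23, RPS26 and RPLP2, among others.

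The direction was the same in every pairing of an inhibited with a control library. On the log2(normalized CPM + 1) scale, the median difference over the 46 genes was -0.58 and -0.80 for inhibited libraries 1 and 2 against control library 1, and -0.70 and -0.97 against control library 2. The libraries of a group differed less, by a median of 0.14 between the control libraries and -0.11 between the inhibited libraries. Over all tested genes these 6 median differences were between -0.06 and 0.04. Both inhibited libraries lay below both control libraries for 26 of the 46 genes (56.5%), where 22.2% of all tested genes did so. Both lay above for 2 genes, RPS20 and RPS28, where 17.9% of all tested genes did.

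No single gene of the family passed the test across all genes. With edgeR's quasi-likelihood test, 0 of 46 had an adjusted p under 0.05, as did 0% of all tested genes, and the lowest adjusted p over the family was 0.46. Without adjustment, 11 genes were lower with p under 0.05 (23.9%, against 5.99% of all tested genes) and 0 were higher (against 3.06%). Among them were RPL6, RPL7, RPL10, RPL11, RPL26 and RPL35 of the large subunit and RPS4X, RPS10, RPS23 and RPS26 of the small subunit. The edgeR exact test and limma-voom also gave 0 adjusted calls in the family, where they gave 5 and 0 over all 2387 genes, and DESeq2 gave 1, RPS26, of 37 over all genes (1.55%). These counts rested on which libraries were used, in the family as over all tested genes. Lower at an unadjusted p under 0.05 were 5 genes without control library 1 (against 3.49% of all tested genes), 0 without control library 2 (against 2.30%), 19 without inhibited library 1 (against 9.40%) and 11 without inhibited library 2 (against 8.20%), where RPL30 was higher (against 2.81%). The edgeR adjusted count became 8 of 47 without inhibited library 1, where it was 77 of 2586 over all tested genes (2.98%), and 1 of 47 without inhibited library 2, where it was 25 of 2561 (0.976%). Of those 8, RPL7L1, RPLP2, RPS12, RPS23 and RPS26 were at 0 counts in the lone inhibited library.

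Genes of both subunits mostly had fitted values below 0, and a difference between the subunits was not tested. Of the 28 tested large subunit genes 26 were below 0, and their median log2 fold change was -0.73. Of the 18 small subunit genes 16 were below 0, and their median was -0.83. The order of these medians depended on the library, as they were -1.09 (large) and -0.78 (small) without inhibited library 1 and -0.54 (large) and -0.92 (small) without inhibited library 2. Summed over all 29 genes, large subunit mRNAs made up 4102 and 4133 normalized CPM in the control libraries, against 3421 and 3497 in the inhibited libraries. The inhibited sums lay below both control sums, with means of 4118 ± 22.3 and 3459 ± 53.2 (SD, n = 2 each), a difference of -16.0%. For the 18 small subunit genes the sums were 2114 and 2087 in the control libraries, against 1843 and 1647 in the inhibited libraries. These too did not overlap, with means of 2101 ± 19.5 and 1745 ± 139 (SD, n = 2 each), a difference of -16.9%, which ranged from -21.6% to -12.2% with a library left out. The ratio of the large to the small subunit sum was 1.94 and 1.98 in the control libraries, against 1.86 and 2.12 in the inhibited libraries. The control ratios lay between the inhibited ones, so this ratio of mRNA sums over the listed genes did not separate the groups. With 2 libraries against 2, an exact two-sided permutation test cannot go below a p of 0.33, so these sums are given without a test.

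The sums were also split by the number of reads over all 4 libraries. The 10 genes with the most reads (RPLP0, RPS3, RPL5, RPL26L1, RPS20, RPL37, RPL3, RPL14, RPL15 and RPL30) summed to 4213 and 3911 normalized CPM in the control libraries and to 3936 and 3995 in the inhibited libraries. These sums overlapped and their means differed by -2.38%. The other 37 genes summed to 2003 and 2309 in the control libraries, against 1328 and 1149 in the inhibited libraries. Here the groups were well apart, with means of 2156 ± 217 and 1239 ± 127 (SD, n = 2 each) and a difference of -42.6%. Ranked by the control libraries alone, RPS4X took the place of RPL30 among the 10, and the differences were -5.40% for the 10 genes, whose groups overlapped, and -37.8% for the other 37, whose groups did not. By the first ranking the 10 genes held 67.8% and 62.9% of the family's counts in the control libraries, against 74.8% and 77.7% in the inhibited libraries.

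**Figure D2:**
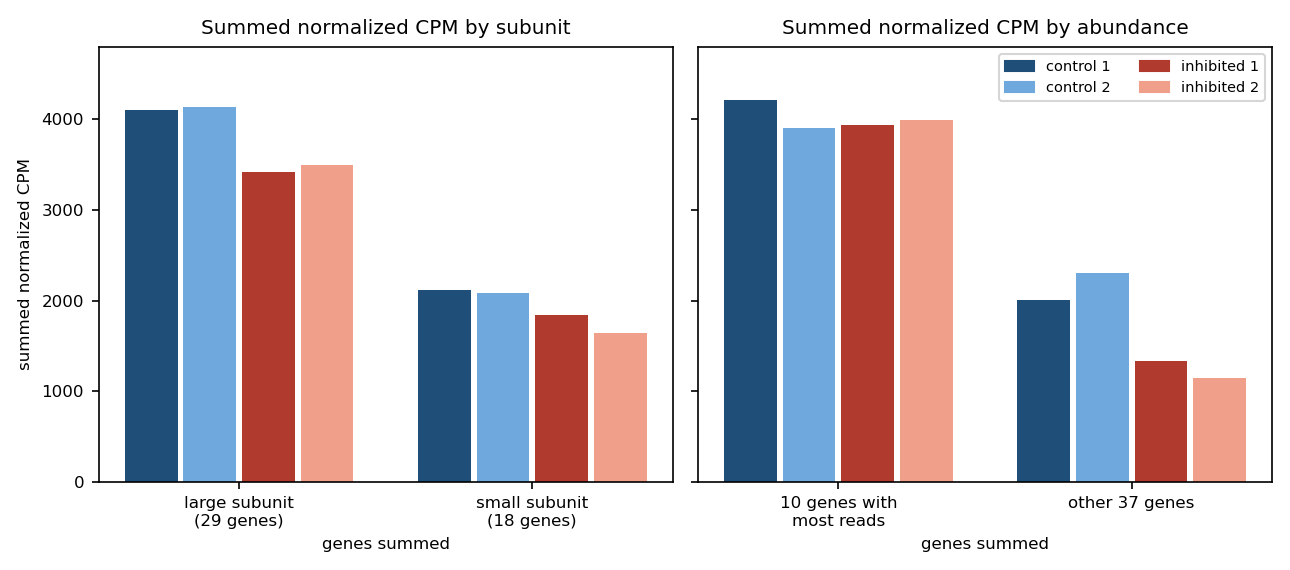
Summed normalized CPM in each library for the large and the small subunit (left) and for the 10 genes with the most reads and the other 37 genes (right), 1 bar per library, from 0. Both subunits stand lower in the inhibited libraries (red), while the sums of the 10 genes with the most reads overlap and those of the other 37 genes do not.

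The genes were also split by their mean normalized CPM over all 4 libraries. This mean includes the inhibited libraries, so a gene's own drop helps place it in a lower range. RPS23, RPL35 and RPL26, with control means of 35.0, 33.8 and 27.0, were placed under 20 in this way. A split by the control libraries alone was not made for these ranges. Of the 14 tested genes with a mean under 20 normalized CPM all had a fitted log2 fold change below 0, with a median of -1.22, where the 859 tested genes of that range had a median of -0.34 and 59.7% below 0. Between 20 and 50 normalized CPM all 9 were below 0 with a median of -1.35. The 362 tested genes of that range had a median of -0.10 and 53.9% below 0. All 8 genes between 50 and 100 were below 0 with a median of -0.55, against a median of -0.16 and 62% of all tested genes there. Between 100 and 200, 6 of 8 were below 0 with a median of -0.68, against a median of -0.01 and 53.3%. Above 200 normalized CPM the median of the 7 genes was -0.06, with 5 below 0. The 591 tested genes there had a median of 0.06 and 37.6% below 0. The family's median lay below that of all tested genes in every range, and closest to it in the last. How far the difference varied with abundance cannot be read from ranges that the difference itself helps set.

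**Figure D3:**
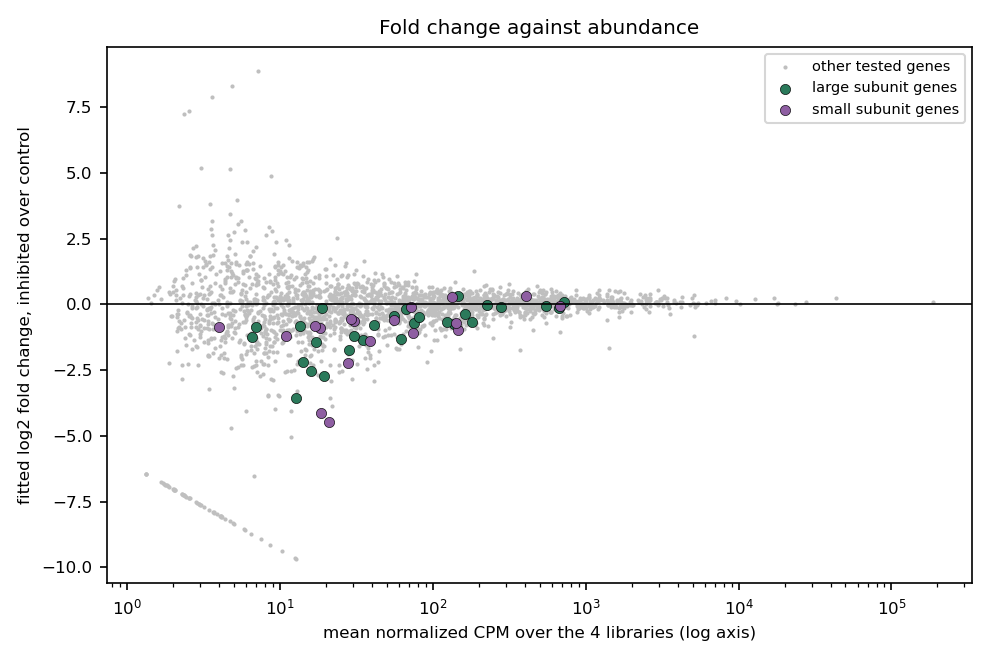
Fitted log2 fold change of inhibited over control (vertical) against mean normalized CPM over the 4 libraries (horizontal, log axis) for the 2387 tested genes, with large subunit genes in green, small subunit genes in purple and all others in grey. Ribosomal protein genes lie mostly below 0 up to 200 normalized CPM and close to 0 above it. The straight grey row at the lower left holds genes at 0 counts in both inhibited libraries, whose fitted values depend on the prior count.

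The stalk of the large subunit, where RPLP0 carries pairs of RPLP1 and RPLP2 and binds the translation factors that use GTP, showed both patterns. RPLP0 was at 657 and 729 normalized CPM in the control libraries and at 657 and 821 in the inhibited libraries. Its groups overlapped, with a log2 fold change of 0.09 (SE 0.155). RPLP1 was at 41.0 and 63.1 in the control libraries, against 14.3 and 45.4 in the inhibited libraries, which again overlapped, at a log2 fold change of -0.80 (SE 0.656). For RPLP2 the control libraries gave 24.6 and 22.5 and the inhibited libraries 4.04 and 0. Both inhibited libraries lay below both control libraries, at a log2 fold change of -3.56 (SE 1.78, unadjusted p = 0.0872), the lowest fitted value of the large subunit. Without inhibited library 2 this value was -2.54, and without inhibited library 1, when the lone inhibited library was at 0 and the fit depended on the prior count, it was -9.68, with unadjusted p-values of 0.0460 and 1.59e-05. The unadjusted p of RPLP2 was also under 0.05 with the replicate number as a block (0.0289, at -4.87), without a filter (0.0138), with DESeq2 (0.0218) and with the newer edgeR fit (0.0115), and was not with the crossed block (0.0620), the exact test (0.0626), limma-voom (0.0861) or without control library 1 (0.208) or 2 (0.163).

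RPL5 and RPL11 enter the large subunit together with 5S ribosomal RNA, and outside the ribosome that complex binds the p53 regulator MDM2. RPL5 was at 732 and 671 normalized CPM in the control libraries and at 615 and 661 in the inhibited libraries. The inhibited values were lower by little, with a log2 fold change of -0.14 (SE 0.130). RPL11 was at 154 and 153 in the control libraries, against 95.1 and 95.0 in the inhibited libraries. The replicates of RPL11 were close and the groups apart, with a log2 fold change of -0.69 (SE 0.239, unadjusted p = 0.0250). This p was over the threshold with DESeq2 (0.0656, at a log2 fold change of -0.67) and with any of the 4 libraries left out. In these leave-outs the log2 fold change stayed between -0.70 and -0.69. The partners thus differed in how far they were lower, a difference that was not tested.

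RPL26 and RPL35 sit near the exit of the tunnel through which the new protein leaves. RPL35 was at 26.8 and 40.8 normalized CPM in the control libraries and at 7.46 and 2.92 in the inhibited libraries. The groups did not overlap, and the control mean was 6.52 times the inhibited mean, at a log2 fold change of -2.71 (SE 0.900, unadjusted p = 0.0210; 0.133 without control library 2). RPL26 was at 21.4 and 32.7 in the control libraries, against 6.52 and 2.92 in the inhibited libraries, at a log2 fold change of -2.52 (SE 0.963, unadjusted p = 0.0364). For RPL26 the threshold was not passed with the replicate number as a block (0.0714), with limma-voom (0.0664) or without control library 1 (0.0729), control library 2 (0.211) or inhibited library 2 (0.0667). RPL26L1, a paralog whose protein is nearly identical to RPL26, was at 648 and 472 in the control libraries, against 514 and 564 in the inhibited libraries. Its groups overlapped, at a log2 fold change of -0.06 (SE 0.183). How reads that match both copies were counted is not given in the sources used here, so the division of counts between RPL26 and RPL26L1 is uncertain, as it may be for other members with processed pseudogenes.

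Among other large subunit genes, RPL10 joins in the last steps of assembly and contacts the site of peptide bond formation. It was at 47.9 and 51.5 normalized CPM in the control libraries and at 18.6 and 20.4 in the inhibited libraries, with close replicates and a log2 fold change of -1.35 (SE 0.507, unadjusted p = 0.0344). This call was lost with the replicate number as a block (0.0585), with DESeq2 (0.0511) and with any of the 4 libraries left out (0.0514 to 0.104). RPL6 was at 68.7 and 108 in the control libraries, against 34.8 and 35.6 in the inhibited libraries. The inhibited values were close together and under the lower control value, at a log2 fold change of -1.32 (SE 0.384, unadjusted p = 0.0118; 0.112 without control library 2). RPL7 was at 168 and 176 in the control libraries, against 117 and 86.2 in the inhibited libraries, at a log2 fold change of -0.76 (SE 0.259, unadjusted p = 0.0236), which did not pass without control library 1 (0.0646), control library 2 (0.0916) or inhibited library 2 (0.127). The groups of RPL6, RPL7 and RPL10 did not overlap, and none of these genes passed adjustment.

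RPL3, which lies close to the peptidyl transferase center, and RPL37 were among the genes with the most reads. RPL3 was at 258 and 197 normalized CPM in the control libraries and at 198 and 244 in the inhibited libraries. RPL37 was at 307 and 272 in the control libraries, against 282 and 256 in the inhibited libraries. In both genes the groups overlapped, with log2 fold changes of -0.04 (SE 0.230) for RPL3 and -0.10 (SE 0.178) for RPL37. RPL30 had the highest fitted value of the large subunit, 0.32 (SE 0.543), from 82.5 and 177 in the control libraries, against 238 and 86.0 in the inhibited libraries. Control library 2 and inhibited library 1 were high for RPL30, so the groups overlapped, and the log2 fold change was -0.60 without inhibited library 1, -0.14 without control library 1, 0.97 without control library 2 and 0.88 (unadjusted p = 0.00889) without inhibited library 2.

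**Figure D4:**
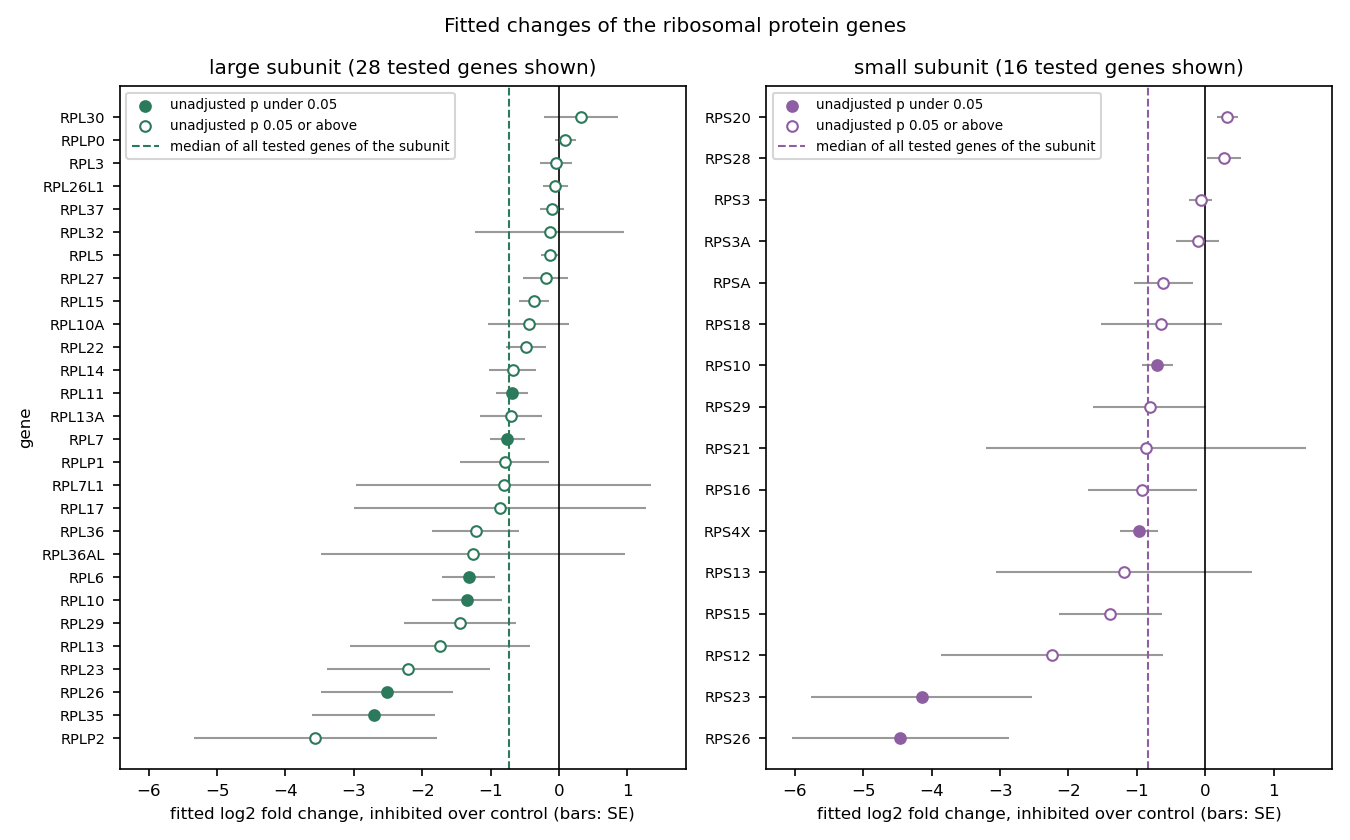
Fitted log2 fold change of inhibited over control (horizontal) for the 28 tested large subunit genes (left) and 16 of the 18 small subunit genes (right), with bars of 1 standard error. Filled points had an unadjusted p under 0.05, and the dashed lines mark the medians of all tested genes of each subunit, -0.73 and -0.83. Most points lie below 0, and wide bars belong to genes at 0 or few counts in a library.

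In the small subunit, RPS26 and RPS23 touch the mRNA, RPS26 where it leaves the subunit and RPS23 at the site where codons are read. RPS26 was at 28.7 and 51.2 normalized CPM in the control libraries and at 3.73 and 0 in the inhibited libraries. RPS23 was at 34.3 and 35.8 in the control libraries, against 4.04 and 0 in the inhibited libraries. Both genes were far lower in each inhibited library than in either control library. The control mean was 21.4 times the inhibited mean for RPS26 and 17.4 times for RPS23. These folds rest on 12 counts of RPS26 and 13 of RPS23 in inhibited library 1. They take the 0 of inhibited library 2 as it stands, without the floor of 3 counts. The fitted log2 fold changes were -4.46 (SE 1.59, unadjusted p = 0.0276) for RPS26 and -4.15 (SE 1.62, unadjusted p = 0.0391) for RPS23, the lowest of the family. Without inhibited library 2, in which both were at 0, these values were -3.41 and -3.11, and without inhibited library 1 they were -10.44 and -10.25 and depended on the prior count. Without control library 2 the unadjusted p was 0.114 for RPS26 and 0.0864 for RPS23, and with limma-voom it was 0.0723 and 0.0606, so neither passed the threshold; RPS23 also did not without control library 1 (0.0873). RPS12, a protein of the subunit's head, was at 43.2 and 48.1 in the control libraries, against 19.6 and 0 in the inhibited libraries, where again library 2 had none, at a log2 fold change of -2.24 (SE 1.62, unadjusted p = 0.212). For RPS12 this was -1.22 without inhibited library 2, -10.63 without inhibited library 1, where it depended on the prior count, -4.05 (unadjusted p = 0.00853) when blocked by replicate number, and -3.87 (0.0680) with the crossed block; the threshold was also passed without a filter (0.00695), with limma-voom (0.0352) and with the newer edgeR fit (0.0219), and not with DESeq2 (0.112) or the exact test (0.204).

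RPS4X, the copy of RPS4 on the X chromosome, was at 166 and 218 normalized CPM in the control libraries and at 82.6 and 114 in the inhibited libraries. The control mean was 1.95 times the inhibited mean, at a log2 fold change of -0.96 (SE 0.278), and its unadjusted p of 0.0114, which became 0.0809 without control library 2, was the lowest of the family. RPS10, at the head of the subunit, was at 172 and 176 in the control libraries, against 115 and 100 in the inhibited libraries, at a log2 fold change of -0.70 (SE 0.231, unadjusted p = 0.0204). The RPS10 call was lost without control library 1 (0.0689), control library 2 (0.0857) or inhibited library 2 (0.0939). Neither gene overlapped between groups.

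RPS3, at the entry of the mRNA channel, had the most reads of the small subunit, at 778 and 618 normalized CPM in the control libraries and at 730 and 605 in the inhibited libraries. Its groups overlapped, at a log2 fold change of -0.07 (SE 0.169). RPS20, its neighbor in the head, was at 366 and 350 in the control libraries, against 473 and 424 in the inhibited libraries. RPS28 was at 135 and 108 in the control libraries, against 148 and 145 in the inhibited libraries. RPS20 and RPS28 were the genes of the family that lay higher in both inhibited libraries, at log2 fold changes of 0.32 (SE 0.154, unadjusted p = 0.0748) and 0.27 (SE 0.245, unadjusted p = 0.306), neither of which passed the threshold.

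Detection itself differed between libraries. Control library 1 had counts for all 47 genes, control library 2 for 46, inhibited library 1 for 44 and inhibited library 2 for 39. Among the 46 tested genes, 0 were at 0 counts in either control library, 2 (4.35%) in inhibited library 1 and 7 (15.2%) in inhibited library 2. Over all tested genes the shares at 0 counts were 5.66% and 1.76% in the control libraries, against 9.22% and 8.25% in the inhibited libraries. Inhibited library 2 lacked RPL7L1, RPL17, RPL36AL, RPLP2, RPS12, RPS23 and RPS26, and inhibited library 1 lacked RPS13 and RPS21, so the inhibited libraries did not lack the same tested genes. RPL9, the gene that was not tested, had 17 counts in control library 1 and 0 in the other 3 libraries.

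The paralogs at 0 counts in inhibited library 2 varied widely within groups. RPL7L1, a paralog of RPL7, was at 1.29 and 32.9 normalized CPM in the control libraries and at 19.6 and 0 in the inhibited libraries. RPL36AL, a paralog of RPL36A, was at 3.02 and 15.5 in the control libraries, against 7.77 and 0 in the inhibited libraries. In both paralogs the groups overlapped, at log2 fold changes of -0.81 (SE 2.16) and -1.25 (SE 2.22), and without control library 2 these turned to 2.88 and 0.35. Without inhibited library 1 they were -9.21 and -8.33, where the lone inhibited library was at 0 and the fit depended on the prior count, and without inhibited library 2 they were 0.20 and -0.25. The 22 tested genes not named by the rule had fitted log2 fold changes from -2.21 for RPL23 to -0.11 for RPS3A, a range that the rule sets in part, since it names the highest and lowest genes and those with an unadjusted p under 0.05.

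Other genes of the ribosome and of translation were set beside the family. Shares given for these lists are to be read against the 52.8% of all tested genes below 0 and, at an unadjusted p under 0.05, the 5.99% lower and 3.06% higher. RACK1, a scaffold protein bound to the small subunit, was at 18.1 and 23.9 normalized CPM in the control libraries, against 7.46 and 0 in the inhibited libraries, at a log2 fold change of -2.51 (SE 1.83, unadjusted p = 0.216; 0.0438 with the newer edgeR fit). Without inhibited library 1, when the lone inhibited library was at 0 and the fit depended on the prior count, the RACK1 value was -9.51 (unadjusted p = 4.97e-05). BTF3, a chaperone at the ribosome, was at 5249 and 4666 in the control libraries, against 4879 and 5259 in the inhibited libraries, at a log2 fold change of 0.03 (SE 0.104), which turned to -0.06 without control library 2 and to -0.03 without inhibited library 2 or with library totals only. So RACK1 lay lower in both inhibited libraries, as most of the family did, and BTF3 overlapped between groups.

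The mRNAs for proteins of mitochondrial ribosomes were not lower as a list. These proteins are made in the cytoplasm but form a separate ribosome. Of 17 tested genes 7 were below 0 (41.2%), the median log2 fold change was 0.03, and 0 had an unadjusted p under 0.05 in either direction. With a library left out, 6 to 9 of the 17 were below 0 and the median was between -0.00 and 0.14. MRPL15, with the most reads of that list, was at 941 and 840 normalized CPM in the control libraries and at 850 and 1049 in the inhibited libraries. These lists contain different genes at different levels, and the difference between them was not tested.

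Among TOP mRNAs for proteins other than those of the family, 9 of 11 tested genes were below 0 (81.8%, against 52.8% of all tested genes), with a median log2 fold change of -0.24. These became 7 of 11 and -0.11 without inhibited library 1, 7 of 11 and -0.16 without control library 1, and 10 of 11 and -0.38 without control library 2. At an unadjusted p under 0.05, 2 were lower (18.2%, against 5.99%), among them TPT1, and 1 was higher (EIF3L; 3.06% of all tested genes were). TPT1, which encodes the translationally controlled tumor protein, was at 131 and 168 normalized CPM in the control libraries and at 39.8 and 25.6 in the inhibited libraries. It was lower in both inhibited libraries than in either control library, at a log2 fold change of -2.20 (SE 0.353, unadjusted p = 0.000529), and passed the threshold with each library left out (highest p 0.00359). EEF1A1, the elongation factor that brings aminoacyl-tRNA to the ribosome, was at 1130 and 1439 in the control libraries, against 1054 and 1193 in the inhibited libraries, with overlapping groups and a log2 fold change of -0.19 (SE 0.152), which was -0.37 (unadjusted p = 0.0468) without control library 1. EEF1A1 had the most reads of the 3 tested elongation and termination factors, all 3 below 0 with a median of -0.24 (-0.03 without control library 2 and -0.43 without control library 1) and 0 at an unadjusted p under 0.05.

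Genes with symbols of initiation factors, which bring mRNA and ribosome together, lay on both sides of 0. Of 14 tested genes 6 were below 0 (42.9%) and the median log2 fold change was 0.08. They include EIF2AK2, a kinase that inhibits initiation, and EIF4EBP1, which binds and blocks eIF4E, both above 0 here but not in each leave-out (EIF2AK2 -0.32 and EIF4EBP1 -0.09 without control library 2, EIF4EBP1 -0.07 without inhibited library 1), and without these 6 of 12 were below 0 with a median of -0.08. With a library left out, 8 or 9 of the 14 were below 0, with medians from -0.10 to -0.02. At an unadjusted p under 0.05, 1 was lower (7.14%, against 5.99% of all tested genes) and 2 were higher (against 3.06%). EIF4A1, an RNA helicase, was at 172 and 183 normalized CPM in the control libraries and at 118 and 75.4 in the inhibited libraries, at a log2 fold change of -0.88 (SE 0.289, unadjusted p = 0.0202). EIF4H, which stimulates that helicase, was at 2173 and 2085 in the control libraries, against 2471 and 2732 in the inhibited libraries, at 0.29 (SE 0.107, unadjusted p = 0.0320). EIF3L, a subunit of the factor that binds the small subunit, was at 246 and 272 in the control libraries, against 344 and 356 in the inhibited libraries, at 0.43 (SE 0.168, unadjusted p = 0.0382). The helicase was thus lower and its stimulator higher in the inhibited libraries, without overlap between groups in either, but these calls depended on the libraries. Of the 4 ways to leave out a library, EIF4A1 passed only without inhibited library 1 (other p-values 0.0509 to 0.100) and EIF4H only without control library 1 (others 0.0649 to 0.276), and EIF4H did not pass with the replicate number as a block (0.0555) or the exact test (0.0782). EIF3L passed in none of these 4 (0.0750 to 0.177), nor with that block (0.0819), library totals only (0.0614), DESeq2 (0.0577) or the exact test (0.0582).

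Genes for ribosome assembly had 15 of 23 tested members below 0 (65.2%, against 52.8% of all tested genes) and a median log2 fold change of -0.28. This median was -0.06 without control library 2 and -0.64 without inhibited library 1. At an unadjusted p under 0.05, 3 were lower (13%, against 5.99%) and 0 were higher (against 3.06%). UTP11, of the complex that processes the small subunit RNA, was at 1786 and 1535 normalized CPM in the control libraries and at 1129 and 1072 in the inhibited libraries, at a log2 fold change of -0.59 (SE 0.124, unadjusted p = 0.00227), a call that held with each library left out (highest p 0.0111). BRIX1, needed for the large subunit, was at 158 and 262 in the control libraries, against 139 and 78.5 in the inhibited libraries, at -0.95 (SE 0.371, unadjusted p = 0.0390), but with p-values of 0.248 without control library 2 and 0.0791 without inhibited library 2. RRP36 was at 3.46 and 9.29 in the control libraries, against 0 in both inhibited libraries, so its control mean was at least 8.19-fold higher than the mean floor of 3 counts per library. RRP36 passed the filter on low counts through the control libraries alone, which fixed its direction, and its call was lost with any of the 4 libraries left out (0.0717 to 0.431), with either block (0.294 and 0.263), with limma-voom (0.116) and without a filter (0.0703). Without such genes of either group, 14 of 22 assembly genes were below 0 (63.6%, against 51.9% of 2285 genes) and 2 were lower (9.09%, against 4.81%). NGDN had the most reads of the list and overlapped between groups, at -0.15 (SE 0.132), which became 0.02 without control library 1 and -0.31 (unadjusted p = 0.0161) without control library 2.

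**Figure D5:**
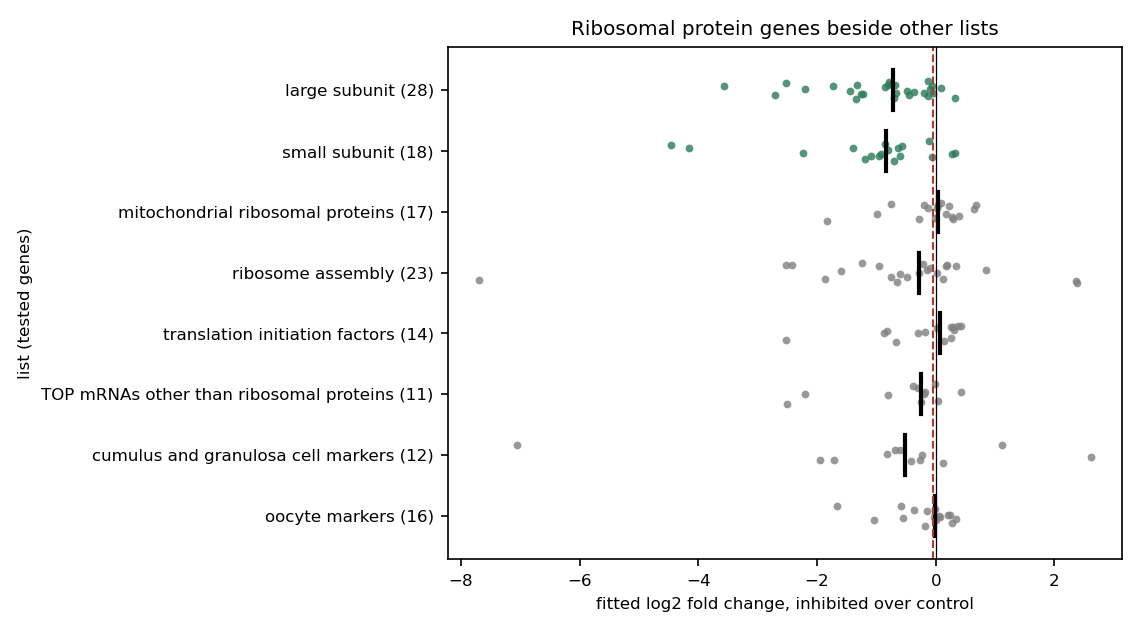
Fitted log2 fold change of inhibited over control (horizontal) for every tested gene of the large and small subunit (green) and of 6 other lists (grey), with the number tested in parentheses. Black bars mark each list's median and the red dashed line the median of all tested genes, -0.04. With all 4 libraries the subunit medians of -0.73 and -0.83 are the lowest of the 8 lists drawn. Lists with 3 or fewer tested genes are left out, and some of these had medians below the large subunit's, among them ribosomal RNA (2 tested genes, -0.78). Without inhibited library 2 the cumulus and granulosa marker median (-1.315) was below both subunit medians (-0.538 large, -0.922 small). Without control library 2 that marker median (-0.628) was below the large subunit median (-0.545). The medians of the mitochondrial ribosomal proteins (0.03) and oocyte markers (-0.02) lie near the line.

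Regulators of TOP mRNAs and of ribosomal protein phosphorylation were represented by 3 tested genes. RHEB, which activates mTOR, had the most reads and was at 1013 and 794 normalized CPM in the control libraries and at 876 and 845 in the inhibited libraries, at a log2 fold change of -0.07 (SE 0.151), which was 0.11 without control library 1. RPS6KA1, a kinase left out of the family by the rule, was at 11.01 and 3.66 in the control libraries, against 22.4 and 19.2 in the inhibited libraries, at 1.49 (SE 1.02). RPS6KA1 lay higher in both inhibited libraries, RHEB overlapped, and none of the 3 had an unadjusted p under 0.05. Of ribosomal RNA, 18S (RN18S) had 53550 counts in control library 1, 9452 in control library 2, 8396 in inhibited library 1 and 17303 in inhibited library 2. Control library 1 was high in 18S RNA and the other 3 libraries were not separated by group. Without control library 1 the median log2 fold change of the ribosomal protein genes was -0.83, and 38 of 46 were below 0.

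Among the 16 tested oocyte markers the median log2 fold change was -0.02, with 9 below 0 (56.2%, against 52.8% of all tested genes). It was -0.49 without inhibited library 1 and -0.13 without control library 1, with 12 below 0 in each, and 0.04 without control library 2, with 6 below 0. GDF9, an oocyte growth factor, was at 1323 and 2988 normalized CPM in the control libraries and at 978 and 393 in the inhibited libraries, at a log2 fold change of -1.66 (SE 0.50, unadjusted p = 0.0140). GDF9 and the zona pellucida gene ZP2 were the markers lower at an unadjusted p under 0.05 (12.5%, against 5.99% of all tested genes). WEE2 was the one that was higher (6.25%, against 3.06%). The GDF9 value was -0.95 (unadjusted p = 0.0679) without control library 2 and did not pass with DESeq2, ZP2 lost its call without control library 2 (0.103) or inhibited library 2 (0.210), and WEE2 without inhibited library 1 (0.0654) or 2 (0.149) and with the exact test (0.130).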

How the data were processed

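RNA from M II oocytes was, per the labels, amplified by Smart-seq2, which primes on poly(A) tails; the study's methods name only the NEBNext Ultra kit with random priming, which the labels give too, so how far poly(A) tails or 18S RNA set what was captured is uncertain. No molecular identifiers are described. The authors deposited whole-number counts per gene symbol. The submitters' processing notes name TopHat2 2.0.13, Cufflinks 2.2.1, Cuffnorm, Cuffdiff and the builds mm10 and susScr11, without roles; the tool behind the counts, its annotation and strand setting are not given in the sources used here, so no gene coordinates are printed. The table held 0 columns of other samples. Counts were analysed with R 4.3.3 and edgeR 4.0.16: filterByExpr (minimum count 10, minimum total 15) kept 2387 genes, TMM factors scaled libraries, and the quasi-likelihood test compared 2 inhibited with 2 control libraries, with Benjamini-Hochberg adjustment over all 2387. The SE is the log2 fold change's size divided by the square root of F. DESeq2 1.42.0 and limma 3.58.1 served as alternatives. The fit was tested on simulated counts. Genes matched RefSeq by symbol for all 47 members and 4296 of 4381 symbols. Members and lists were chosen with earlier results of these data known. Named genes were members with an unadjusted p under 0.05, the 5 per subunit with most reads, the 3 highest and 3 lowest fold changes per subunit, those at 0 in 1 group and at 10 or more counts in a library of the other, and paralogs by symbol; in other lists, those with an unadjusted p under 0.05 and the gene with most reads. RPLP1, RACK1, RPS6KA1, PTGS2, CYP11A1, NR5A2, EIF2AK2, EIF4EBP1 and the cumulus markers at 0 were named outside this rule. The results of 3 genes are not reported here one by one; counts, sums and medians hold them.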

Additional observations from a re-analysis of the deposited data

How the results depend on the processing

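The count of genes below 0 was 42 of 46 under every scaling, replicate block and other test, 43 of 47 without a filter, 30 of 34 with at least 10 counts in every library and between 38 and 40 when a library was left out. Over 12 settings of scaling, filter, block and test, the family's median log2 fold change was between -0.95 and -0.65. Adjusted calls were 0 except 2 without a filter (RPS23 and RPS26; 1.47% of all tested genes), 1 with DESeq2 (1.55%) and 0 to 8 with a library left out (0% to 2.98%); unadjusted calls ranged from 0 to 19 with a library left out and from 9 to 16 otherwise, where 2.30% to 9.40% and 5.32% to 8.76% of all tested genes were lower. The small subunit median was -0.67 with at least 10 counts in every library, -0.64 over members detected in every library, -1.02 with the replicate block, -1.01 with the crossed block, -0.97 with limma-voom and -0.92 to -0.73 with a library left out; the large subunit median was -1.09 to -0.54 with a library left out. The percent change of the large subunit sum was -14.9 with RLE factors, -19.4 with library totals only and -20.6 without RPLP0, and that of the small subunit sum -23.1 without RPS3. Leaving out a library turned the sign of 7 named genes of the family, with log2 fold changes from -0.078 to 0.24 for RPLP0, -0.27 to 0.18 for RPL26L1, -0.23 to 0.16 for RPL3, -0.60 to 0.97 for RPL30, -0.23 to 0.10 for RPS3, -8.33 to 0.35 for RPL36AL and -9.21 to 2.88 for RPL7L1, and in other lists that of BTF3, EIF2AK2, EIF4EBP1, MRPL15, NGDN, RHEB, RN18S and VCAN; the cause was not tested, and a lone library was then assumed to vary like the other group. Same-numbered libraries deviated with a correlation of -0.12 across genes, and the labels do not say that numbers pair libraries; the replicate block gave 14 unadjusted and 0 adjusted calls in the family and the crossed pairing, added after seeing the data, 12 and 0. The newer edgeR fit, the ranking by control libraries and the settings for other lists were also added after seeing the data. So were the members detected in every library, the counts below 0 and the subunit sums with a library left out. Depth limits the genes with few counts, where the SE reached 2.34 for RPS21.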
